A study of Alligator mississippiensis with 17 samples.

Results

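The genes that copy chromosomes and divide cells were examined as 1 set in RNA sequencing of tooth tissue from the American alligator (Alligator mississippiensis), a reptile that replaces its teeth throughout life. The set was defined by a list of 52 gene symbols, and every row of the expression table bearing a listed symbol was taken. Of the 52 symbols, 49 were found among the 20703 genes of the table, and RRM2, CDC25C and UBE2C are not listed under those symbols. The 49 members comprised 21 genes of DNA replication, 24 genes of mitosis and 4 regulators of the G1 phase and of entry into S phase. All 49 passed the filter on low values.

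The tissue was dental lamina, the epithelial strand from which each new tooth buds, at pre-initiation (PIS, 5 libraries), initiation (IS, 3 libraries) and early growth (EG, 4 libraries), and replacement teeth (RT, 5 libraries). The animals in every group were 1 year old, laboratory-raised at 30 degrees and untreated, and no genotype, allele or agent separates the groups. The groups were read from the sample titles, because a second label for the stage of the tooth cycle reads pre-initiation for all 17 libraries. Nothing in the labels ties replicates to different animals, and the p-values therefore speak of the spread among libraries, which may be technical. Library depth ranged from 9667270 to 37747400 alignments. None of the 13 listed epithelial markers found in the table (of 18 listed, among them EPCAM, CDH1 and TP63) was at 0 in any library, but their summed level was 135 RPKM in PIS replicate 5, against 555 to 743 RPKM in the other PIS libraries. In RT the sum was 155 RPKM in replicate 3 and 539 to 855 RPKM in the other replicates. These 2 libraries stand apart from the rest of their groups. Counts of members called and differences of the replication and mitosis means are also given with libraries left out. Fold changes of single members are given with all libraries unless stated. The lamina libraries also held mesenchyme transcripts, with 19 mesenchyme and fibroblast markers summing to 7170 to 10420 RPKM in PIS. Changes in these libraries therefore cannot be assigned to the epithelium alone.

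A dividing cell first loads the ring-shaped MCM helicase at replication origins in G1 phase, then activates it with CDC45 and the GINS complex, and copies its DNA with polymerases held to the template by the PCNA clamp. Cyclin-dependent kinases drive entry into S phase and into mitosis. D and E cyclins act in G1 and at the start of S phase, and A and B cyclins act later, up to mitosis. In mitosis, kinetochores attach chromosomes to the spindle, a checkpoint delays separation until all are attached, and the cell then cleaves. Most of these transcripts are known, in yeast and mammalian cells, to accumulate only in cycling cells, replication genes before mitotic genes. A bud that starts to form a tooth grows by division of both its epithelium and the mesenchyme around it. The roles given below are those established in yeast and mammals for genes of the same name.

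Across the 17 libraries the members spanned mean levels of 1.14 RPKM (CDC6) to 75.5 RPKM (PCNA). RPKM scales reads to gene length and to library size, so these levels can be compared between genes. The mean level was highest in IS for 36 members and in EG for 13, and lowest in PIS for 37 members and in RT for 12. No member had its highest mean in PIS or RT, and none its lowest in IS or EG. Of the 21 replication genes 17 peaked in IS and 4 in EG, and of the 24 mitosis genes 18 peaked in IS and 6 in EG. As described below, no member differed between IS and EG by the test, so the order of those 2 groups is not resolved. The members varied more between libraries of a group than other genes did. The median SD on the log2 scale was 0.37 in PIS, 0.37 in IS, 0.26 in EG and 0.55 in RT over the members, and 0.30, 0.18, 0.17 and 0.29 over all genes tested.

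**Figure D1:**
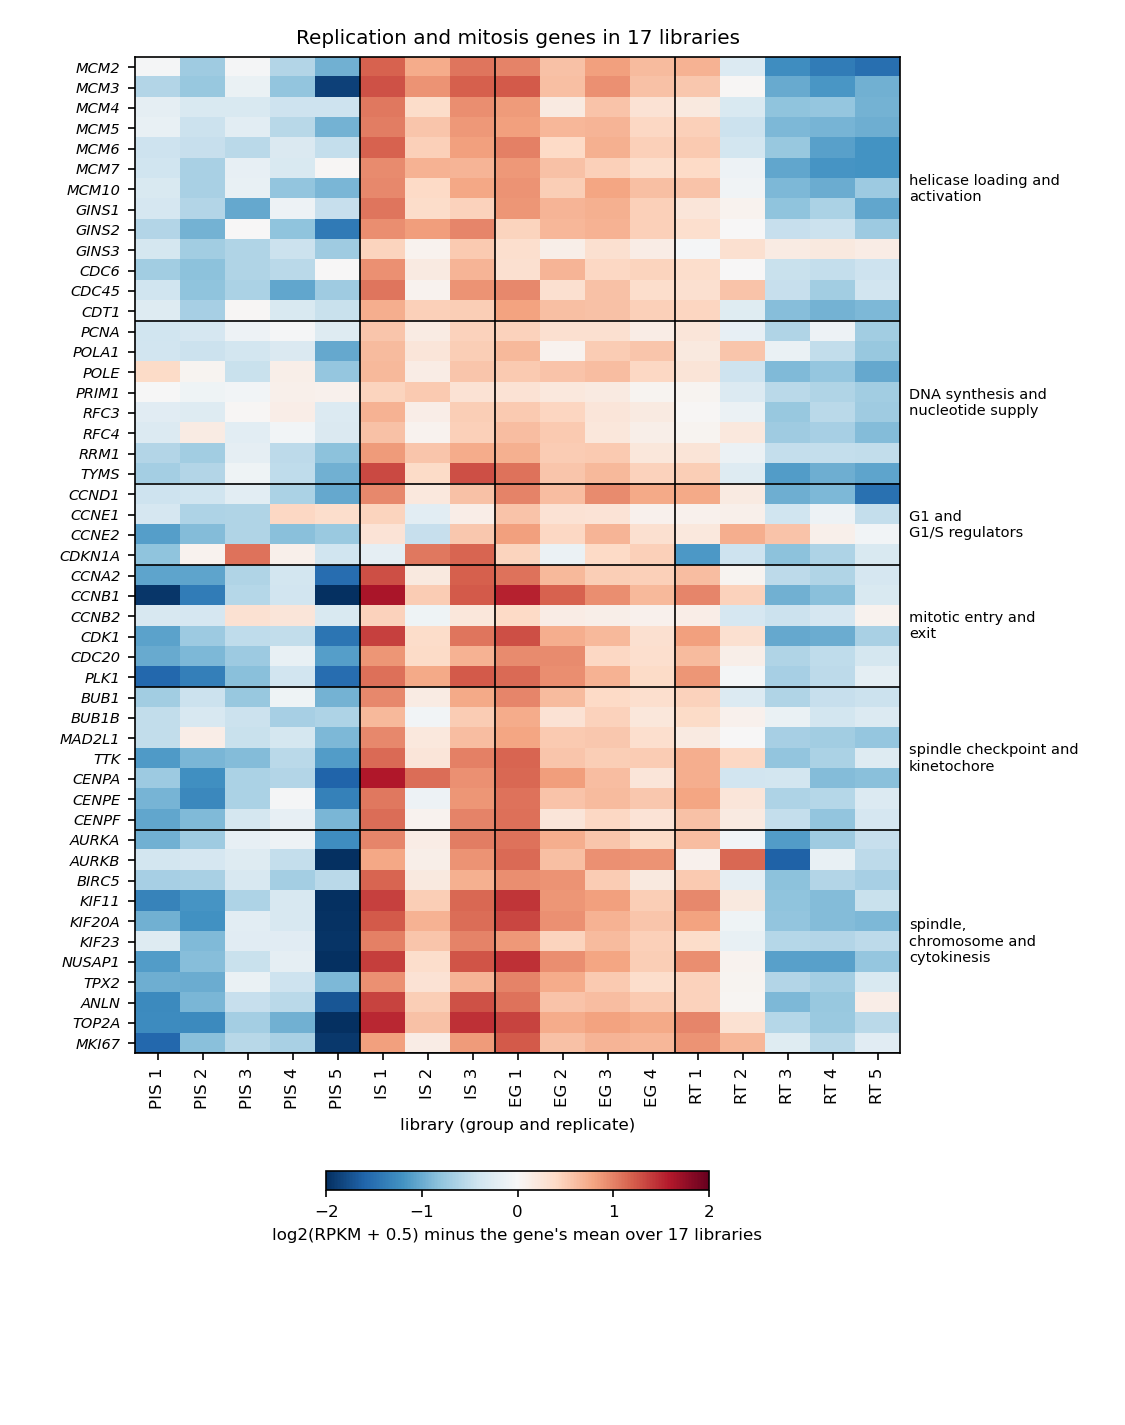
Level of each of the 49 members (rows, ordered by role) in each of the 17 libraries (columns, ordered PIS, IS, EG, RT), shown as log2(RPKM + 0.5) minus the gene's mean over the libraries, with the colour scale ending at -2 and 2. The IS and EG columns are mostly red and the PIS columns mostly blue, and the RT block runs from red in replicate 1 to blue in replicates 3, 4 and 5.

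At initiation, 45 of the 49 members rose relative to pre-initiation and 0 fell, against 22.7% of all 12684 genes tested that rose and 2.25% that fell. The question here is what the lamina does as it begins to form a tooth. The members' median log2 fold change was 1.28, and that of all genes tested was 0.28. After median-ratio scaling, which sets the median gene near 0, 40 of the 45 were still higher, against 6.50% of all genes, with a median of 1.04. For 43 members every IS library lay above every PIS library, which held for 24.9% of all genes. The replication genes had a median of 1.12 and the mitosis genes 1.63. The members not called were POLE, CCNE1, CDKN1A and CCNB2. Each call was made with limma on log2(RPKM + 0.5), a scale that understates changes of genes near 0, at an adjusted p under 0.05, and ± beside a log2 fold change is its standard error. Without IS replicate 1 the number called was 38, and without PIS replicate 5 it was 44.

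All 13 genes that load and activate the helicase were higher in IS than in PIS, with log2 fold changes of 0.89 to 1.94, and all 13 kept the call after scaling. MCM2, a subunit of the helicase ring, was at 8.62, 5.16, 8.57, 5.63 and 4.23 RPKM in PIS, 20.5, 14.9 and 19 in IS, 17.9, 13.4, 15.9 and 13.9 in EG and 14.4, 7.16, 3.39, 3 and 2.74 in RT, listed here and below by replicate number. Its log2 fold change in IS over PIS was 1.46 ± 0.21 (adjusted p = 0.00134), with no overlap between the groups. MCM5, another subunit of the ring, was at 8.85, 7.17, 8.49, 6.56 and 4.9 RPKM in PIS, 20.6, 14.7 and 18.4 in IS, 17.8, 16, 16.1 and 13.3 in EG and 14, 7.22, 5.07, 4.96 and 4.78 in RT. It averaged 17.9 ± 2.98 RPKM in IS and 7.19 ± 1.59 RPKM in PIS (SD, n = 3 and 5). Among MCM2 to MCM7, which make up the ring together, MCM3 had the greatest change (1.94), with 14 ± 1.89 RPKM in IS and 3.52 ± 1.52 RPKM in PIS. The mean levels of these 6 ring subunits spanned 3.52 RPKM (MCM3) to 10.1 RPKM (MCM7) in PIS, 13.4 RPKM (MCM4) to 21.7 RPKM (MCM7) in IS, 10.7 RPKM (MCM4) to 18.9 RPKM (MCM7) in EG, and 4.71 RPKM (MCM3) to 8.85 RPKM (MCM7) in RT. MCM7 thus had the highest mean of the 6 in every group.

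CDC6 was the least abundant member. It recruits the helicase together with the origin recognition complex, and it was at 0.445, 0.368, 0.507, 0.559 and 1.05 RPKM in PIS, 2.4, 1.23 and 1.97 in IS, 1.41, 1.96, 1.54 and 1.6 in EG and 1.45, 1.05, 0.622, 0.598 and 0.647 in RT. CDT1, its partner in loading, was at 3.84, 2.8, 4.8, 3.71 and 3.32 RPKM in PIS, 8.07, 6.77 and 6.8 in IS, 8.59, 7.38, 7.28 and 6.77 in EG and 6.52, 3.91, 2.4, 2.19 and 2.3 in RT. Both were above every PIS library in all 3 IS libraries, with log2 fold changes of 1.12 ± 0.23 (adjusted p = 0.00542) for CDC6 and 0.89 ± 0.15 (adjusted p = 0.00279) for CDT1. MCM10, which helps to activate the loaded helicase, was at 0.985, 0.665, 1.14, 0.554 and 0.471 RPKM in PIS, 3.06, 1.92 and 2.63 in IS, 2.92, 2.08, 2.66 and 2.26 in EG and 2.21, 1.24, 0.477, 0.419 and 0.609 in RT. In IS it averaged more than 2 RPKM and in PIS less than 1 RPKM (2.54 ± 0.575 RPKM in IS and 0.762 ± 0.286 RPKM in PIS). GINS2, a subunit of the activated helicase, was at 2.31, 1.69, 3.72, 1.92 and 1.09 RPKM in PIS, 7.51, 7.02 and 7.81 in IS, 5.23, 6.19, 6.33 and 5.4 in EG and 4.84, 3.72, 2.56, 2.63 and 2.05 in RT. Its 3 IS values span a narrow range above all 5 PIS values, and its log2 fold change was 1.66 ± 0.24 (adjusted p = 0.00125). CDC45, which binds the ring with GINS, rose by 1.39, GINS1 by 1.14 and GINS3 by 0.90.

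The enzymes of DNA synthesis changed less, with a median of 0.60 over 8 genes, 7 of them called as deposited and 3 (POLA1, RRM1 and TYMS) also after scaling. PCNA, the sliding clamp and the most abundant member, was at 55.6, 58, 68.2, 71.7 and 61.1 RPKM in PIS, 108, 81.7 and 101 in IS, 101, 92, 91.5 and 81.4 in EG and 86.4, 65.2, 48.2, 68.4 and 45 in RT. Its log2 fold change in IS over PIS was 0.62 ± 0.12 (adjusted p = 0.005), and after scaling it was 0.33 and no longer called. POLA1, the catalytic subunit of the polymerase that starts each new strand, was at 5.04, 4.81, 5.06, 5.36 and 3.02 RPKM in PIS, 10.6, 7.99 and 9.59 in IS, 10.8, 7.08, 9.72 and 10 in EG and 7.69, 10.1, 6.07, 4.59 and 3.74 in RT. It averaged 9.39 ± 1.32 RPKM in IS and 4.66 ± 0.938 RPKM in PIS. Its partner PRIM1, the primase that makes the RNA primer, changed by 0.41, the smallest change among the called members, and lost the call after scaling and without IS replicate 1 (adjusted p = 0.0657). POLE, the catalytic subunit of the leading-strand polymerase, averaged 6.95 ± 1.3 RPKM in IS and 4.63 ± 1.56 RPKM in PIS, and its groups overlapped (0.58, adjusted p = 0.0781). The clamp loader genes RFC3 (0.57) and RFC4 (0.51) lost the call after scaling, RFC3 also without IS replicate 1 or 3, and RFC4 also without IS replicate 1 or 3 or PIS replicate 1, 3 or 5.

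Genes of nucleotide supply had larger fold changes than the polymerase genes, a difference that was not tested. TYMS, the enzyme that makes thymidylate, was at 3.52, 3.76, 5.53, 4.01 and 2.79 RPKM in PIS, 15.6, 7.88 and 15.2 in IS, 13.2, 8.95, 9.54 and 8.33 in EG and 8.57, 4.9, 2.45, 2.75 and 2.58 in RT. The lowest IS library held 7.88 RPKM and the highest PIS library 5.53 RPKM, and the log2 fold change was 1.57 ± 0.24 (adjusted p = 0.00178). RRM1, the large subunit of ribonucleotide reductase, averaged 34.4 ± 3.57 RPKM in IS and 14 ± 2.54 RPKM in PIS, a change of 1.28 with the smallest adjusted p of the set (0.000503).

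Of the 4 regulators of G1 phase and S phase entry, CCND1 and CCNE2 rose and CCNE1 and CDKN1A were not called. CCND1, which encodes cyclin D1, was at 16.8, 17, 19.3, 14.3 and 10.8 RPKM in PIS, 44.3, 26 and 34 in IS, 45.4, 34.9, 43.8 and 38.3 in EG and 38.4, 25.5, 11.2, 11.8 and 7.7 in RT. Each IS library was above each PIS library, with a log2 fold change of 1.12 ± 0.19 (adjusted p = 0.00286). CCNE1 and CCNE2 encode the 2 E cyclins, which act at entry into S phase. CCNE1 was at 2.5, 1.99, 2, 4.57 and 4.37 RPKM in PIS, 4.69, 2.78 and 3.67 in IS, 5.12, 4.14, 4.09 and 3.54 in EG and 3.52, 3.56, 2.38, 3.05 and 2.22 in RT. It overlapped between all groups, and its change in IS over PIS was 0.28, adjusted p = 0.435, with a negative sign (-0.06) after quantile normalization. CCNE2 was at 0.394, 0.559, 0.771, 0.584 and 0.655 RPKM in PIS, 1.84, 0.894 and 2.3 in IS, 2.89, 2.07, 2.6 and 1.92 in EG and 1.73, 2.69, 2.35, 1.58 and 1.36 in RT. All 5 of its PIS values were under 1 RPKM, and its log2 fold change in IS was 0.95 ± 0.23 (adjusted p = 0.0126). That call was lost without IS replicate 1 or IS replicate 3 (adjusted p of 0.0687 to 0.0784). CDKN1A, which encodes an inhibitor of cyclin-dependent kinases, was at 2.88, 5.73, 12, 5.84 and 3.97 RPKM in PIS, 4.74, 11.8 and 12.8 in IS, 7.5, 4.96, 7.32 and 7.68 in EG and 2.17, 3.92, 2.84, 3.36 and 4.27 in RT. Its PIS and IS values overlapped over most of their range, and the change was 0.68, adjusted p = 0.201.

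Mitosis genes had the largest rises of the set. CCNB1, which encodes cyclin B1, the partner of CDK1 at mitotic entry, was at 1.64, 2.64, 5.04, 5.81 and 0.779 RPKM in PIS, 25.2, 11.2 and 18.8 in IS, 23.5, 18.3, 15.3 and 12.5 in EG and 15.8, 10.9, 3.75, 4.13 and 6.16 in RT. It averaged 18.4 ± 7.01 RPKM in IS and 3.18 ± 2.17 RPKM in PIS (SD, n = 3 and 5), and its log2 fold change of 2.52 ± 0.45 (adjusted p = 0.00339) was the greatest of the 49. TOP2A was close behind at 2.51 ± 0.35, so the order of these 2 genes is not resolved. Both changes include PIS replicate 5. CCNB2, the second B cyclin, was not called. It averaged 5.35 ± 1.1 RPKM in IS and 4.34 ± 1.12 RPKM in PIS, with overlapping groups (0.29, adjusted p = 0.272, and -0.03 after quantile normalization). CDK1, the kinase itself, was at 4.3, 5.6, 6.56, 6.63 and 3.16 RPKM in PIS, 25.4, 12.5 and 20.7 in IS, 24.1, 16.2, 15.2 and 12.1 in EG and 17.2, 12.1, 4.48, 4.54 and 5.92 in RT. The lowest IS library held 12.5 RPKM and the highest PIS library 6.63 RPKM. CCNA2, which encodes cyclin A2 of S phase and G2 phase, was at 0.416, 0.412, 0.758, 0.966 and 0.161 RPKM in PIS, 4.12, 1.68 and 3.87 in IS, 3.55, 2.48, 2.18 and 2.13 in EG and 2.42, 1.47, 0.815, 0.751 and 1.01 in RT. All 5 PIS libraries were below 1 RPKM and all 3 IS libraries above it. PLK1, a kinase of mitotic entry and spindle formation, was at 1.77, 2.12, 3.27, 4.67 and 1.84 RPKM in PIS, 14, 10.9 and 15.2 in IS, 14.3, 12.4, 10.4 and 8.3 in EG and 11.9, 6.06, 3.77, 4.2 and 5.37 in RT. It rose by 2.16 ± 0.26 (adjusted p = 0.000591). CDC20, which activates the anaphase-promoting complex, averaged 2.88 ± 0.575 RPKM in IS and 0.777 ± 0.376 RPKM in PIS.

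All 7 genes of the spindle checkpoint and kinetochore rose in IS, by 0.87 to 2.17, and all 7 kept the call after scaling. BUB1, a checkpoint kinase, was at 2.17, 2.72, 2.05, 3.57 and 1.74 RPKM in PIS, 7.93, 4.32 and 6.79 in IS, 7.97, 6.2, 5.18 and 4.94 in EG and 5.46, 3.06, 2.33, 2.64 and 2.7 in RT. MAD2L1, whose product blocks CDC20 until chromosomes are attached, was at 11.5, 18.1, 11.9, 12.8 and 8.57 RPKM in PIS, 32.6, 19.1 and 25.5 in IS, 28.6, 23.8, 24.1 and 20.9 in EG and 18.7, 16.6, 10.2, 9.94 and 9.41 in RT. For both, every IS library was above every PIS library, the gap being small for MAD2L1 (19.1 RPKM in the lowest IS library, 18.1 RPKM in the highest PIS library). CENPA, the histone that marks the centromere, was at 0.553, 0.249, 0.625, 0.662 and 0.073 RPKM in PIS, 4.82, 3.29 and 2.8 in IS, 3.38, 2.61, 2.19 and 1.56 in EG and 2.4, 0.839, 0.859, 0.454 and 0.478 in RT. It had the greatest change of the 7, 2.17 ± 0.28 (adjusted p = 0.000758), and PIS replicate 5 held its lowest value. CENPF, a kinetochore protein, was at 0.473, 0.577, 1.07, 1.29 and 0.558 RPKM in PIS, 3.84, 1.59 and 3.47 in IS, 3.76, 1.86, 2.16 and 1.9 in EG and 2.49, 1.75, 0.926, 0.65 and 1.08 in RT. Its IS replicate 2 lay closest to PIS, and without IS replicate 1 its call and that of CENPE, a kinetochore motor, were lost (adjusted p = 0.052 and 0.0565). BUB1B and TTK, both genes of the checkpoint, rose by 0.87 and 1.70.

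The 11 genes of the spindle, chromosome structure and cytokinesis also all rose, by 1.26 to 2.51, with every IS library above every PIS library for each. TOP2A, the topoisomerase that untangles sister chromosomes, was at 3.12, 3.05, 4.9, 3.92 and 1.05 RPKM in PIS, 23.9, 12.4 and 23.2 in IS, 21.6, 14, 14.5 and 14.1 in EG and 16.5, 10.2, 5.33, 4.67 and 5.42 in RT. Its log2 fold change was 2.51 ± 0.35 (adjusted p = 0.00104). MKI67, which encodes the Ki-67 protein used as a stain for dividing cells, was at 1.07, 2.1, 2.65, 2.45 and 0.712 RPKM in PIS, 7.7, 4.64 and 7.86 in IS, 10.4, 6.47, 6.9 and 6.88 in EG and 8.19, 6.86, 3.42, 2.67 and 3.47 in RT. The highest PIS value was 2.65 RPKM and the lowest IS value 4.64 RPKM. AURKA, a kinase of the spindle poles, was at 1.43, 1.8, 2.85, 2.98 and 1.09 RPKM in PIS, 6.88, 3.67 and 7.11 in IS, 7.42, 5.68, 5.03 and 4.39 in EG and 5.27, 3.09, 1.23, 1.78 and 2.21 in RT. BIRC5, which encodes survivin of the chromosomal passenger complex, was at 6.28, 6.35, 8.08, 6.17 and 6.84 RPKM in PIS, 23.6, 11.7 and 17 in IS, 19.8, 19.5, 14.7 and 11.7 in EG and 14.8, 8.94, 5.55, 6.64 and 6.22 in RT. Its 5 PIS values lay close together, at 6.17 to 8.08 RPKM, and its lowest IS value was 11.7 RPKM. AURKB, the kinase of the same complex, had the least firm call of the 11. It averaged 14.6 ± 4.01 RPKM in IS and 5.9 ± 2.86 RPKM in PIS (1.45, adjusted p = 0.0459), with 0.85 RPKM in PIS replicate 5, and the call was lost after scaling and when any 1 IS or EG library was left out (adjusted p of 0.053 to 0.153). KIF11, the motor that separates the spindle poles, was at 1.85, 2.12, 3.38, 4.28 and 0.762 RPKM in PIS, 14.9, 7.89 and 12.7 in IS, 15.6, 10.5, 9.97 and 7.89 in EG and 11.1, 6.33, 2.9, 2.75 and 3.87 in RT. KIF20A, a motor of the midzone, was at 3, 2.44, 5.4, 4.99 and 1.23 RPKM in PIS, 15.5, 10.6 and 14.3 in IS, 16.7, 12.4, 10.6 and 9.57 in EG and 11.4, 5.95, 3.47, 3.23 and 3.18 in RT. ANLN, which encodes a scaffold of the cleavage furrow, was at 1.48, 2.03, 2.97, 2.77 and 0.955 RPKM in PIS, 11.6, 6.23 and 11 in IS, 9.66, 6.58, 6.81 and 6.36 in EG and 6.03, 4.37, 2.06, 2.31 and 4.73 in RT. For these 3 genes PIS replicate 5 held the lowest value of all 17 libraries. The remaining members of this group, KIF23, NUSAP1 and TPX2, rose by 1.56, 1.95 and 1.31.

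Endothelial, mural and leukocyte markers also differed between IS and PIS, at larger shares than those of all genes (22.7% higher and 2.25% lower). The summed level of 13 epithelial markers was at most 1031 RPKM in IS and 135 to 743 RPKM in PIS, and each IS library was above each PIS library, with 1 of 13 called higher and 0 lower. That of 19 endothelial and mural markers was 188 to 264 RPKM in IS and 278 to 655 RPKM in PIS, with 13 of 19 lower. That of 19 mesenchyme and fibroblast markers was 5520 to 13124 RPKM in IS and 7170 to 10420 RPKM in PIS, with 0 of 19 called. That of 16 leukocyte markers was 134 to 140 RPKM in IS and 60.6 to 102 RPKM in PIS, with 10 of 12 tested higher. The share of epithelial markers called higher was smaller than that of all genes, and after median-ratio scaling 0 of the 13 were called. Their fold changes were nevertheless mostly positive, for 13 of 13 as deposited and 12 after scaling. The median log2 fold change of the epithelial markers was 0.88, against 0.28 over all genes, and after scaling 0.61 against 0.02. After that scaling 14 endothelial and mural markers and 1 mesenchyme and fibroblast marker were lower, and 7 leukocyte markers were higher. No listed epithelial, endothelial, mural or leukocyte marker was at 0 throughout PIS or IS. In bulk tissue, fewer dividing cells and less RNA per dividing cell cannot be told apart, and the part of tissue composition in the rise was not tested. With PIS replicates 4 and 5 both left out, the number of members called was 45.

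**Figure D2:**
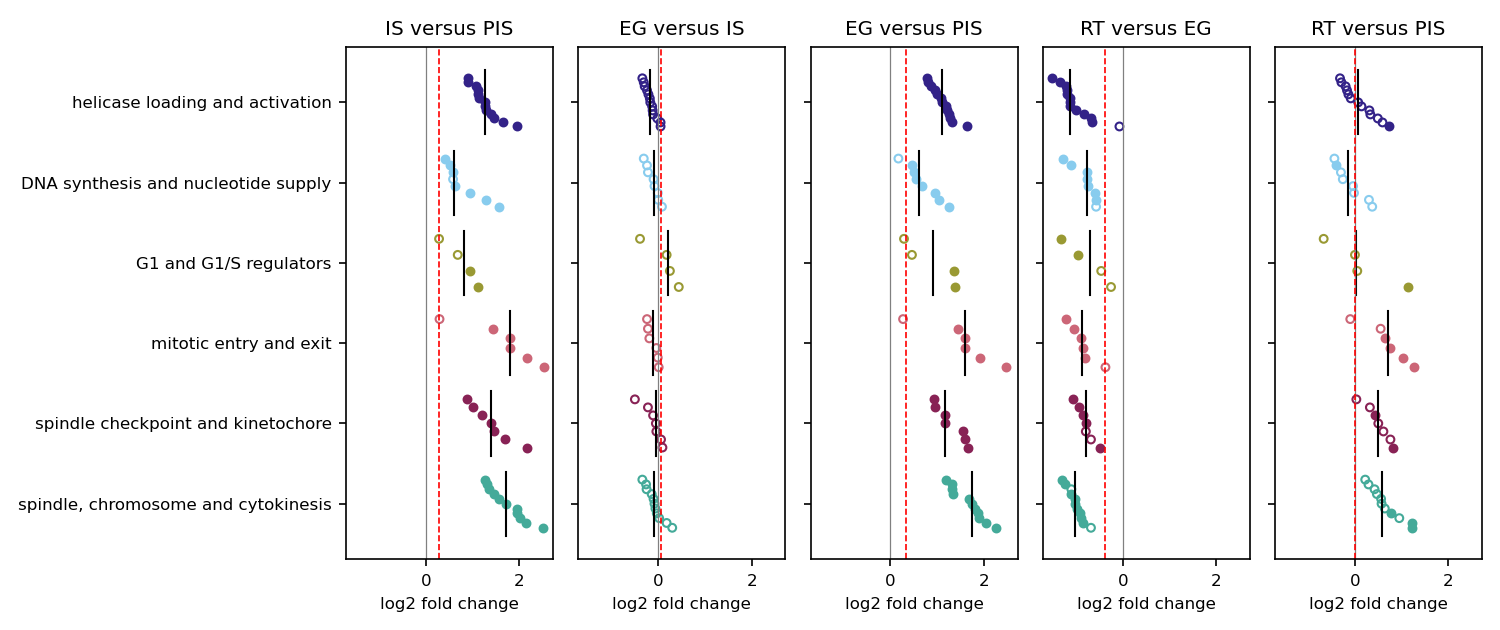
Log2 fold change of each member (1 circle a gene) in the 5 comparisons, grouped by role, with filled circles for members called by limma at an adjusted p under 0.05 and open circles for the others. Black bars are the medians of each role and the dashed red line is the median of all genes tested. Most circles lie to the right of that line for IS versus PIS and EG versus PIS (PRIM1, CCNB2 and CDKN1A lie to its left in EG versus PIS), near 0 for EG versus IS, and mostly to the left for RT versus EG, with GINS3 and CCNE2 to its right.

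Between initiation and early growth, no change in the members was detected. In EG over IS, 0 of 49 members were called in either direction by limma and 1 had an unadjusted p under 0.05, against 1.64% of all genes called higher and 0.512% called lower. The median log2 fold change was -0.10 over the members and 0.05 over all genes. GINS2 was the only member without overlap. Every EG library was below every IS library, as for 8.81% of all genes, with means of 5.79 ± 0.553 RPKM in EG and 7.44 ± 0.401 RPKM in IS (SD, n = 4 and 3), a change of -0.34, adjusted p = 0.589. CENPA had the most negative change (-0.50, adjusted p = 0.466) and CCNE2 the most positive (0.44, adjusted p = 0.421), and both overlapped between groups. PRIM1 had the lowest adjusted p of the 49 (-0.24, adjusted p = 0.32). With array weights, which give libraries that vary more a lower weight, 13 members were called lower and 1 higher. The share of all genes called with these weights was not counted, so these counts cannot be read as particular to the members.

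In early growth, 45 members were higher than at pre-initiation and 0 lower, against 42.9% of all genes higher and 7.58% lower. EG and IS share the PIS libraries as their comparison group, so this is no independent repeat of the rise at initiation. After scaling, 41 were called higher, against 17.5% of all genes. The median log2 fold change was 1.26 over the members and 0.34 over all genes, and 0.95 and 0.04 after scaling. The replication genes had a median of 0.99 and the mitosis genes 1.60. CCNB1 had the greatest rise, 2.48 ± 0.42 (adjusted p = 0.000656), followed by TOP2A (2.25) and KIF11 (2.05). MCM3 led the replication genes (1.65, with 11.5 ± 2.63 RPKM in EG and 3.52 ± 1.52 RPKM in PIS). CCND1 averaged 40.6 ± 4.86 RPKM in EG and 15.6 ± 3.25 RPKM in PIS (1.37, adjusted p = 0.000184), and CCNE2 averaged 2.37 ± 0.454 RPKM in EG and 0.592 ± 0.138 RPKM in PIS (1.39, adjusted p = 0.000389). PRIM1 (0.17, adjusted p = 0.137), CCNE1 (0.46, adjusted p = 0.124), CDKN1A (0.29, adjusted p = 0.504) and CCNB2 (0.27, adjusted p = 0.205) were not called, and the sign of PRIM1, CDKN1A and CCNB2 turned negative after median-ratio scaling (-0.15, -0.02 and -0.03). The calls of 2 members rested on 1 library each, POLE on EG replicate 3 (adjusted p = 0.0512 without it) and RFC3 on EG replicate 1 (0.0501). EG replicate 1 was the highest of the 4 EG libraries for 45 of the 49 members, against 42.0% of the 12904 genes tested in the fit of all libraries. Over 13 epithelial markers, the summed level was 929 to 1300 RPKM in EG and 135 to 743 RPKM in PIS, with 11 called higher. Over 19 endothelial and mural markers it was 132 to 194 RPKM in EG and 278 to 655 RPKM in PIS, with 15 lower and 1 higher. Over 19 mesenchyme and fibroblast markers it was 4306 to 6781 RPKM in EG and 7170 to 10420 RPKM in PIS, with 10 lower and 0 higher. Nerve and Schwann cell markers were lower for 6 of 9 tested, and enamel and ameloblast markers were higher for 6 of 6, with sums of 385 to 3023 RPKM in EG and 0.26 to 30.1 RPKM in PIS. After median-ratio scaling, 5 of the 13 epithelial markers were higher, against 17.5% of all genes. The same scaling left 17 endothelial and mural markers, 14 mesenchyme and fibroblast markers and 6 nerve and Schwann cell markers lower. The part of these shifts in the rise was not tested.

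**Figure D3:**
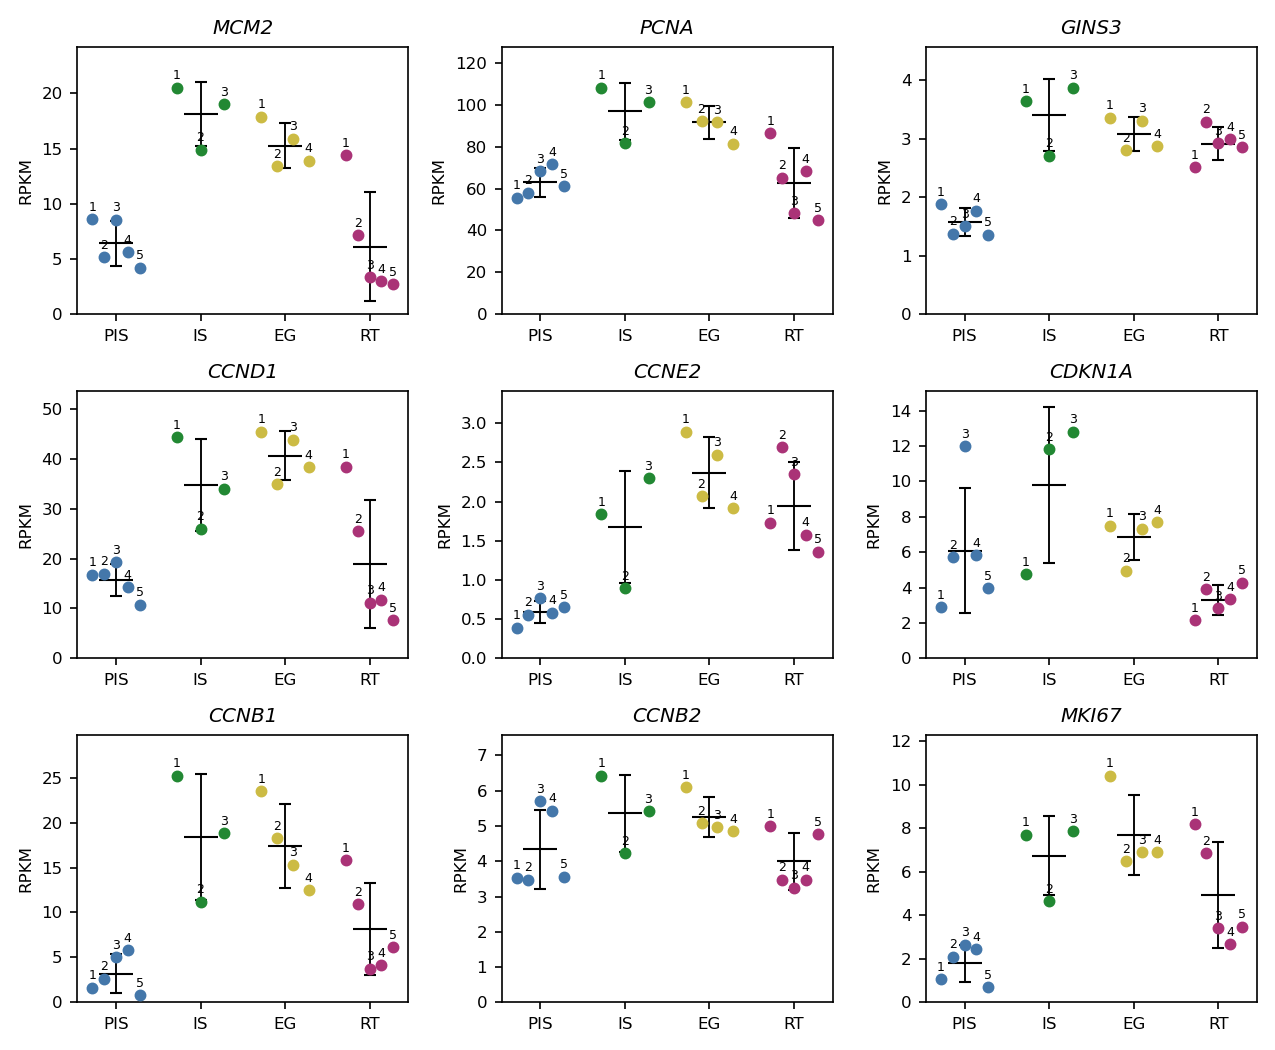
RPKM of 9 members in each library, by group, with replicate numbers beside the points and bars for the mean and SD (n = 5 PIS, 3 IS, 4 EG and 5 RT). GINS3, CCNE2 and MKI67 stand higher in all 5 RT libraries than in all 5 PIS libraries, whereas MCM2, PCNA, CCND1 and CCNB2 overlap between RT and PIS. The gap is very small for MKI67 (2.67 RPKM in the lowest RT library, 2.65 RPKM in the highest PIS library).

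Replacement teeth held less of these transcripts than the early growth lamina, and the size of the difference depended on how libraries were scaled. As deposited, 40 members fell in RT relative to EG and 0 rose, against 39.0% of all 12904 genes tested that fell and 4.89% that rose. The members' median log2 fold change was -0.91 and that of all genes -0.37. After median-ratio scaling, 12 members were called lower, against 6.35% of all genes, with medians of -0.55 over the members and -0.01 over all genes. For 10 members every RT library was below every EG library, which held for 30.4% of all genes. Without EG replicate 1 the number called lower was 23, without RT replicate 3 it was 24, and without RT replicate 4 it was 26. Without RT replicates 3 and 5 together it was 8. Leaving out 1 library ended 18 of the 40 calls, those of CDC6, CDC45, CDKN1A and 15 mitosis genes. EG replicate 1 ended 17 of them, RT replicate 3 ended 16, RT replicate 4 ended 14, RT replicate 5 ended 12, and EG replicates 2, 3 and 4 ended 10, 8 and 5, with adjusted p of up to 0.145.

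The 12 members called lower both as deposited and after scaling were 11 of the 21 replication genes, CCND1, and none of the 24 mitosis genes. They included all 6 subunits of the helicase ring, MCM10, GINS1, CDT1, POLE and TYMS. MCM2 had the greatest fall, averaging 6.14 ± 4.95 RPKM in RT and 15.3 ± 2.03 RPKM in EG (SD, n = 5 and 4), a log2 fold change of -1.51 ± 0.36 (adjusted p = 0.00534), although RT replicate 1 (14.4 RPKM) lay within the EG range. CDT1, POLE, GINS1, GINS2, MCM3 and RFC3 were the replication genes whose groups did not overlap. CDT1 averaged 3.46 ± 1.85 RPKM in RT and 7.51 ± 0.769 RPKM in EG, a change of -1.12, and POLE averaged 3.34 ± 1.54 RPKM in RT and 7.32 ± 0.479 RPKM in EG, a change of -1.10. TYMS fell by 1.27 and CCND1 by 1.32 on the log2 scale. Of the 3 measured GINS genes, GINS3 was not called. It was at 1.88, 1.38, 1.51, 1.77 and 1.36 RPKM in PIS, 3.64, 2.71 and 3.87 in IS, 3.36, 2.8, 3.31 and 2.87 in EG and 2.51, 3.29, 2.92, 2.99 and 2.86 in RT, and its change in RT over EG was -0.07, adjusted p = 0.658, with a positive sign after scaling (0.27). POLA1 was also not called (-0.57, adjusted p = 0.0528).

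As deposited, 19 of the 24 mitosis genes were lower in RT than in EG, with a median of -0.90. NUSAP1, a microtubule-binding protein of the spindle, had the greatest fall among them (-1.31, adjusted p = 0.0226). It averaged 9.02 ± 6.52 RPKM in RT and 20.2 ± 6.12 RPKM in EG, and the groups overlapped. MAD2L1, KIF23 and ANLN were the mitosis genes without overlap. MAD2L1 averaged 13 ± 4.34 RPKM in RT and 24.4 ± 3.18 RPKM in EG, with -0.93, adjusted p = 0.00629. After scaling the median was -0.54 over the mitosis genes and -0.63 over the replication genes, and the smallest adjusted p among the mitosis genes was 0.0605 (MAD2L1). CENPE (-0.79, adjusted p = 0.058), CENPF (-0.68, adjusted p = 0.0762), AURKB (-1.10, adjusted p = 0.0886), CCNB2 (-0.37, adjusted p = 0.0962) and MKI67 (-0.68, adjusted p = 0.0972) were not called as deposited. Among the G1 genes, CDKN1A averaged 3.31 ± 0.84 RPKM in RT and 6.86 ± 1.28 RPKM in EG, without overlap (-0.96, adjusted p = 0.0286), a call lost after scaling. CCNE1 (-0.46, adjusted p = 0.107) and CCNE2 (-0.25, adjusted p = 0.339) were not called, and the sign of CCNE2 was positive after scaling (0.07). A call in 1 role and not in another does not show that the roles differ, and the difference between them was not tested.

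Cell type markers differed between these tissues as well. The summed level of 13 epithelial markers was 155 to 855 RPKM in RT and 929 to 1300 RPKM in EG, with 6 lower and 0 higher. That count is near the share of all genes called lower (39.0%), and after median-ratio scaling 1 of the 13 was lower. The summed level of 8 odontoblast and bone markers was 1608 to 8955 RPKM in RT and 974 to 1390 RPKM in EG, with 4 higher and 1 lower. For 7 enamel and ameloblast markers it was 3521 to 9976 RPKM in RT and 385 to 3023 RPKM in EG, with 2 higher. For 19 mesenchyme and fibroblast markers it was 7552 to 44953 RPKM in RT and 4306 to 6781 RPKM in EG, with 5 higher and 7 lower. Of 10 nerve and Schwann cell markers tested, 1 was higher and 5 were lower. After scaling these counts were 5 higher and 3 lower, and 1 higher and 1 lower. Of 19 endothelial and mural markers, 2 were lower as deposited and 0 after scaling. The share of summed RPKM held by the most abundant gene also varied between libraries. A gene listed as LOC100552162L held 25.0% of all summed RPKM in RT replicate 1 and 16.9% in replicate 2, and the collagen gene COL1A1 held 9.78%, 6.37% and 13.0% in replicates 3, 4 and 5. In the EG libraries the most abundant gene held 1.20% to 10.3%, and EG replicate 4, at 10.3%, was above RT replicates 3 and 4. The part of composition in the fall was not tested.

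Set against pre-initiation lamina, replacement teeth were higher for 11 members and lower for 1, while 20.3% of all genes were higher and 21.2% lower. The share of members called higher was thus close to that of all genes, and the share called lower was smaller. The members' median log2 fold change was 0.33, and that of all genes was 0.00. It was -0.04 over the 21 replication genes (0.00 after scaling), of which 1 was higher and 1 lower. It was 0.59 over the 24 mitosis genes (0.64 after scaling), of which 9 were higher and 0 lower. After scaling, 16 members were higher and 1 lower, against 24.0% and 21.2% of all genes. The count of 11 fell to 5 when PIS replicate 1, PIS replicate 5, RT replicate 1 or RT replicate 2 was left out, and the count of 1 lower was 2 without PIS replicate 1 or PIS replicate 5 and 5 without RT replicate 1. Cell type markers moved with this comparison too. Endothelial and mural markers summed to 77.6 to 159 RPKM in RT and 278 to 655 RPKM in PIS, with 16 of 19 lower. Mesenchyme and fibroblast markers summed to 7552 to 44953 RPKM in RT and 7170 to 10420 RPKM in PIS, with 3 of 19 higher and 11 lower. Nerve and Schwann cell markers were higher for 1 and lower for 7 of 10 tested, with NEFL at 0 in every RT library, and enamel and ameloblast markers were higher for 7 of 7. Epithelial markers were higher for 1 and lower for 1 of 13. The part of these shifts in the members' values was not tested.

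The 9 mitosis genes higher in RT were CCNA2, CCNB1, CDC20, PLK1, BUB1B, TTK, ANLN, TOP2A and MKI67. For MKI67 every RT library was above every PIS library. The gap was very small (2.67 RPKM in the lowest RT library, 2.65 RPKM in the highest PIS library). Such a lack of overlap held for 3 of the members, a smaller share than the 11.2% of all genes. MKI67 averaged 4.92 ± 2.44 RPKM in RT and 1.8 ± 0.86 RPKM in PIS (SD, n = 5 each), a log2 fold change of 1.22 ± 0.31 (adjusted p = 0.00449). TOP2A averaged 8.42 ± 5.04 RPKM in RT and 3.21 ± 1.42 RPKM in PIS, a change of 1.22 ± 0.35 (adjusted p = 0.0101), with RT replicate 4 (4.67 RPKM) inside the PIS range. PLK1 averaged 6.26 ± 3.29 RPKM in RT and 2.73 ± 1.24 RPKM in PIS, a change of 1.03. CCNB1 had the greatest change of all members (1.27, adjusted p = 0.0264), with RT replicates 3 and 4 (3.75 and 4.13 RPKM) below PIS replicates 3 and 4 (5.04 and 5.81 RPKM). The calls of CCNA2, CCNB1, CDC20, BUB1B, TTK and ANLN were each lost without PIS replicate 1, PIS replicate 5, RT replicate 1 or RT replicate 2, and some also without other libraries, with adjusted p of 0.0505 to 0.121. KIF11 (0.95, adjusted p = 0.0506) and CENPE (0.76, adjusted p = 0.0577) missed the threshold as deposited and passed it after scaling.

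Among the replication genes GINS3 was higher in every RT library than in every PIS library. It averaged 2.91 ± 0.281 RPKM in RT and 1.58 ± 0.233 RPKM in PIS, a log2 fold change of 0.72 ± 0.12 (adjusted p = 0.000249). PRIM1 was the member called lower (-0.41, adjusted p = 0.013), at 8.34 ± 1.97 RPKM in RT and 11.1 ± 0.631 RPKM in PIS. The helicase genes spread widely in RT, MCM2 averaging 6.14 ± 4.95 RPKM in RT and 6.44 ± 2.03 RPKM in PIS (-0.29, adjusted p = 0.526) and MCM7 8.85 ± 5.08 RPKM in RT and 10.1 ± 1.85 RPKM in PIS (-0.32, adjusted p = 0.334). For POLE (-0.44, adjusted p = 0.153) and PCNA (-0.04, adjusted p = 0.858) the groups also overlapped. CCNE2 was the third member without overlap, at 1.94 ± 0.557 RPKM in RT and 0.592 ± 0.138 RPKM in PIS (1.14, adjusted p = 0.000277). CCND1 (0.05, adjusted p = 0.916) and CDKN1A (-0.67, adjusted p = 0.0945) were not called. The sign of PCNA and of CCND1 changed with single libraries left out.

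**Figure D4:**
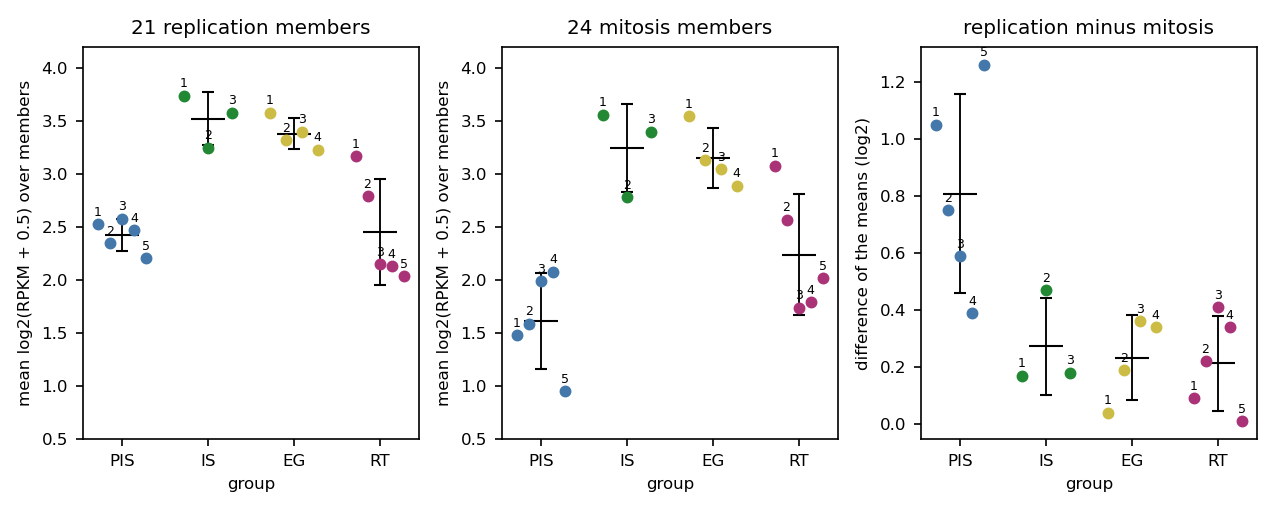
Mean log2(RPKM + 0.5) over the 21 replication genes (left), over the 24 mitosis genes (middle) and the difference between them (right) in each library, by group, with replicate numbers and bars for mean and SD. PIS lies at 0.39 to 1.26 in the difference and the other groups at 0.01 to 0.47, and RT replicate 1 lies highest among the RT libraries in both means.

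Replication and mitosis genes were also compared within each library, as the mean log2(RPKM + 0.5) over the members of each kind. The replication mean was 2.43 ± 0.15 in PIS, 3.52 ± 0.25 in IS, 3.38 ± 0.15 in EG and 2.46 ± 0.50 in RT, and the mitosis mean was 1.62 ± 0.45 in PIS, 3.25 ± 0.41 in IS, 3.15 ± 0.28 in EG and 2.24 ± 0.57 in RT (SD). The replication mean thus exceeded the mitosis mean by 0.81 ± 0.35 in PIS, 0.28 ± 0.17 in IS, 0.23 ± 0.15 in EG and 0.22 ± 0.17 in RT. In PIS the excess was 1.05, 0.75, 0.59, 0.39 and 1.26 in replicates 1 to 5, in IS 0.17, 0.47 and 0.18, in EG 0.04, 0.19, 0.36 and 0.34, and in RT 0.09, 0.22, 0.41, 0.34 and 0.01. PIS replicate 4 lay below IS replicate 2 and RT replicate 3, so PIS overlaps IS and RT, and it does not overlap EG. The means are a description of chosen genes and carry no test. The number of members under 1 RPKM was 6 to 13 in the PIS libraries, 0 or 1 in IS, 0 in EG and 0 to 6 in RT, and the pseudocount compresses such values more than higher ones. With a pseudocount of 0.1 the excess differed by -0.63 for IS minus PIS and -0.69 for RT minus PIS.

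PIS replicate 5 had the lowest mitosis mean of all libraries, 0.95, and the largest excess of replication. It was the lowest PIS library for 30 of the 49 members, against 36.7% of all genes tested. Its mean log2 level over the 13 epithelial markers was 2.46, and that of the other PIS libraries 4.56 to 4.98. PIS replicates 3 and 4 were the highest PIS library for 17 and 21 members, against 18.5% and 20.6% of all genes. Without PIS replicate 5 the difference in excess was -0.42 for IS minus PIS and -0.48 for RT minus PIS, against -0.53 and -0.59 with all libraries.

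In the levels of the members, the 5 replacement tooth libraries differed among themselves more than the libraries of any other group, and they are given singly. This did not hold over all genes tested, where the median SD on the log2 scale was 0.29 in RT and 0.30 in PIS. Nor did it hold for the excess of replication over mitosis, where the SD was 0.17 in RT and 0.35 in PIS. RT replicate 1 had a replication mean of 3.17 and a mitosis mean of 3.08. It was above every PIS library for 42 of the 49 members, against 31.5% of all genes tested, and below every EG library for 15, against 58.3% of all genes. It was the highest RT library for 41 members, against 32.0% of all genes. Its mitosis mean lay within the EG range (2.89 to 3.55), and its replication mean lay just under it (3.23 to 3.58). RT replicate 2 had means of 2.79 and 2.57, above the PIS range in both (2.21 to 2.58 for replication and 0.95 to 2.08 for mitosis). It was above every PIS library for 32 members, against 37.6% of all genes, and below every EG library for 40, against 55.1%. It was the highest RT library for 7 members, a smaller share than the 33.5% of all genes, among them AURKB (21.1 RPKM, against 2.68 to 9.94 RPKM in the other RT libraries), POLA1, CDC45, RFC4, GINS3 and both E cyclins.

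RT replicates 3, 4 and 5 were close to each other in both means as deposited. Replicate 3 had means of 2.15 for replication and 1.74 for mitosis, replicate 4 of 2.13 and 1.79, and replicate 5 of 2.04 and 2.02. All 3 replication means lay below every PIS library, and all 3 mitosis means lay within the PIS range. Replicate 3 was above every PIS library for 7 members, replicate 4 for 4 and replicate 5 for 11, against 24.5%, 27.9% and 19.6% of all genes. They were below every EG library for 47, 48 and 48 members, against 67.6%, 61.8% and 73.1% of all genes. Of the 24 mitosis genes, 2 in replicate 3, 0 in replicate 4 and 0 in replicate 5 were below every PIS library, and of the 21 replication genes 11, 10 and 13 were, while 32.0%, 23.7% and 38.4% of all genes were. MCM2 illustrates the spread, with 14.4 and 7.16 RPKM in RT replicates 1 and 2 and 3.39, 3 and 2.74 RPKM in replicates 3, 4 and 5. MKI67 held 8.19 and 6.86 RPKM in replicates 1 and 2 and 3.42, 2.67 and 3.47 RPKM in the other 3. GINS3 had its lowest RT value in replicate 1 and its highest in replicate 2.

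Scaling moved the single RT libraries by different amounts, because the all-gene scaling factors were 0.986 and 0.995 in RT replicates 1 and 2 and 0.844, 0.925 and 0.764 in replicates 3, 4 and 5. After scaling, the replication means of the 5 RT libraries were 3.19, 2.80, 2.36, 2.23 and 2.37, against 3.03 to 3.30 in EG and 2.41 to 2.69 in PIS. The scaled mitosis means were 3.10, 2.58, 1.95, 1.88 and 2.36, against 2.69 to 3.26 in EG and 1.11 to 2.15 in PIS. RT replicate 1 then lay within the EG range in both, and replicates 3, 4 and 5 stayed below every PIS library in the replication mean. In the mitosis mean, replicates 3 and 4 stayed within the PIS range, and replicate 5 (2.36) then lay above it. Marker levels also differed between the RT libraries. The mean log2 level of epithelial markers was 4.89, 5.65, 3.27, 5.11 and 4.21 in replicates 1 to 5, and that of odontoblast and bone markers was 4.84, 4.87, 5.76, 5.66 and 6.53. The 2 RT libraries with more of the cell cycle transcripts thus held the least of the odontoblast and bone transcripts, and the part of tissue composition or tooth age in this was not tested. The labels give no stage for single RT libraries, and the sample titles do not say whether each came from a different tooth.

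Genes outside the set but of the same pathways were taken from lists of further replication and mitosis genes. Of 46 further replication genes tested, 30 rose in IS over PIS, 36 in EG over PIS, and 0 fell in either, and 37 fell in RT over EG, against the shares of all genes given above for each comparison (22.7%, 42.9% and 39.0%). After median-ratio scaling these counts were 16 higher, 15 higher with 2 lower, and 6 lower, against 6.50%, 17.5% and 6.35% of all genes called in the main direction. In RT over PIS, 4 rose and 4 fell, with a median of 0.01. Both are smaller shares than the 20.3% of all genes that rose and the 21.2% that fell. Of 87 further mitotic genes tested, 71 rose in IS over PIS and 75 in EG over PIS, and 69 fell in RT over EG. After scaling 59 and 66 were higher, and 9 were lower in RT over EG. In RT over PIS, 14 rose and 4 fell, with a median of 0.32, and both counts were again smaller shares than those of all genes. Of 34 tested genes that control G1 and S phase, 15 rose and 1 fell in IS over PIS, and 9 were higher and 2 lower after scaling.

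Transcription factors that drive the set in mammalian cells were also measured. E2F1, an activator of replication genes, averaged 2.04 ± 0.289 RPKM in IS and 0.618 ± 0.334 RPKM in PIS (1.24, adjusted p = 0.00702). FOXM1, an activator of mitotic genes, averaged 2.8 ± 0.892 RPKM in IS and 0.879 ± 0.33 RPKM in PIS (1.26, adjusted p = 0.00425), and MYBL2, which acts with it, 8.55 ± 2.33 RPKM in IS and 1.99 ± 0.968 RPKM in PIS (1.92, adjusted p = 0.00191). In RT over EG, FOXM1 fell without overlap, averaging 1.05 ± 0.826 RPKM in RT and 2.83 ± 0.341 RPKM in EG (-1.23, adjusted p = 0.00549). CDKN1B, which encodes an inhibitor of cyclin-dependent kinases that accumulates in resting cells, followed another course. It was at 16.9, 12, 20.1, 23.2 and 12.8 RPKM in PIS, 22.7, 20.8 and 19.6 in IS, 46.8, 35, 34.7 and 31.5 in EG and 40.7, 61.1, 70, 73.8 and 60.8 in RT. It was higher in RT than in EG (0.71, adjusted p = 0.0116) and higher in every RT library than in every PIS library (1.83, adjusted p = 1.62e-06). It was also higher in EG than in PIS (1.13, adjusted p = 0.000568), as most members were. Its lowest RT value was in replicate 1 (40.7 RPKM), the RT library with the most cell cycle transcripts. CDKN1A, the inhibitor in the set, was lower in RT than in EG. Of 34 tested genes that control G1 and S phase, 9 rose and 7 fell in RT over PIS, against 20.3% and 21.2% of all genes. CDKN2D (-1.20), BTG1 (-0.97) and CCNG2 (-0.85) were among those that fell.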

How the data were processed

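RNA of 12 dental lamina and 5 replacement tooth libraries was sequenced after Illumina TruSeq preparation, per the labels' protocols. The authors deposited RPKM, which scales reads to gene length and library alignments (9667270 to 37747400). The submitters' processing notes name TopHat2 2.1.0 and Partek 3. Build, annotation and strand were not given in the sources used here. No positions are therefore reported, and antisense overlap is uncertain. Members were matched by symbol, and sequences were not analysed here.

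On the log2(RPKM + 0.5) scale, limma 3.58.1 (R 4.3.3) was fitted with group means and an empirical Bayes trend, over genes of at least 1 RPKM in at least 3 libraries. A fit of the 12 lamina libraries (12684 genes) gave IS and EG contrasts, and a fit of all 17 (12904 genes) gave RT contrasts. Calls had a Benjamini-Hochberg adjusted p under 0.05 over all genes. The fit was tested on simulated data. The members, the other gene lists and the tests were chosen with earlier results of these data known. All members may be named, and the genes given in every library were listed by role together with the greatest rise and fall of each comparison. Alternatives were other pseudocounts, filters, scalings, weights, trend, libraries in the fit and a replicate block.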

Additional observations from a re-analysis of the deposited data

Results flagged for a closer look

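In groups of 4 or 5 libraries, 7 of 147 member and group combinations had a library far from the others, with a gap to the nearest value that exceeded the 95% critical value of Dixon's test, which chance exceeds in about 1 of 20 groups. In PIS, replicate 5 was low for POLA1 (3.02 RPKM, against 4.81 to 5.36 in the other libraries) and for AURKB (0.85 RPKM, against 6.55 to 7.72). In EG, replicate 1 was high for TTK (6.96 RPKM, against 4.2 to 4.43), ANLN (9.66 RPKM, against 6.36 to 6.81), TOP2A (21.6 RPKM, against 14 to 14.5) and MKI67 (10.4 RPKM, against 6.47 to 6.9). EG replicate 2 was low for CDKN1A (4.96 RPKM, against 7.32 to 7.68). No IS value was tested, since that group has 3 libraries, and 0 RT values stood out.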

How the results depend on the processing

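Depth, tissue composition and the relative scale of RPKM limit these results. The counts of members called in IS over PIS and EG over PIS stayed within 1.5 times of 45 under all alternatives, at 38 to 45 and 44 to 46 with 1 library left out. In EG over IS, array weights called 1 member higher and 13 lower, and 0 were called with any 1 library left out. In RT over EG, the 40 lower calls became 12 after median-ratio scaling, 14 after quantile normalization, 8 without RT replicates 3 and 5, and 23 to 43 with 1 library left out. In RT over PIS, the 11 higher calls became 7 with no filter on low values, 5 with a mean RPKM of at least 5 (32 members tested), 4 with array weights, 5 with only those 2 groups in the fit, and 5 to 14 with 1 library left out. The 1 lower call became 5 with array weights, 0 with only those 2 groups, 0 without PIS replicates 4 and 5, 0 without RT replicates 3 and 5, and 1 to 5 with 1 library left out. Except for the smaller number of members tested at a mean RPKM of at least 5, the cause was not tested. Among the alternatives, the share of all genes called was counted only for median-ratio scaling.

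The difference of replication and mitosis means moved by less than the pooled SD (0.23) with other pseudocounts, both scalings and libraries left out, the alternatives run for it, and with 1 library left out was -0.64 to -0.42 in IS over PIS, -0.68 to -0.46 in EG over PIS, -0.10 to 0.05 in EG over IS, -0.08 to 0.04 in RT over EG and -0.70 to -0.48 in RT over PIS. Signs of members that were not called changed. After quantile normalization they were -0.06 (CCNE1) and -0.03 (CCNB2) in IS over PIS, -0.12 (PRIM1), -0.06 (CDKN1A) and -0.10 (CCNB2) in EG over PIS, and 0.32 (GINS3), 0.15 (CCNE2) and 0.01 (CCNB2) in RT over EG. After median-ratio scaling they were -0.15 (PRIM1), -0.02 (CDKN1A) and -0.03 (CCNB2) in EG over PIS, 0.27 (GINS3) and 0.07 (CCNE2) in RT over EG, and 0.00 (PCNA) in RT over PIS. In RT over PIS, array weights gave 0.01 (PCNA) and -0.31 (CCND1), leaving out PIS replicates 4 and 5 gave 0.01 (PCNA) and -0.15 (CCND1), and leaving out RT replicates 3 and 5 gave 0.14 (MCM2), 0.00 (MCM7) and 0.21 (PCNA). With 1 library left out, RT over PIS was -0.17 to 0.07 for PCNA and -0.26 to 0.30 for CCND1.

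The labels do not say whether libraries with the same replicate number share an animal. Deviations of same-numbered libraries correlated at -0.476 to 0.358 across genes, and a library correlated best with its own number in 14 of 44 cases. The number of such cases due to chance was not computed. These correlations cannot exclude shared animals, because a library can deviate from its group for other reasons as well. With the replicate block, 43 members were called higher in IS over PIS, 46 in EG over PIS and 13 in RT over PIS, 33 were called lower in RT over EG and 1 in RT over PIS, and 0 were called in EG over IS. The planned description of promoter motifs was not run, because promoter sequences were not used here.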
